A study of Mus musculus with 8 samples.

Results

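The 9 genes described here belong to the inflammasome pathway in mouse skin: the sensors Nlrp3, Nlrp10 and Aim2, the adaptor Pycard, the caspases Casp1 and Casp4, and the gasdermins Gsdma, Gsdmc and Gsdmd. They are the rows of the deposited expression table that carry these 9 gene symbols, out of 34745 genes, and their values were compared between 4 libraries labelled NcstnΔKC and 4 labelled normal. In the NcstnΔKC group both Ncstn alleles are floxed and 1 copy of Krt14-CreER, a tamoxifen-dependent recombinase under the keratin 14 promoter of basal keratinocytes, is present. The product of Ncstn, nicastrin, belongs to the γ-secretase complex, a protease within membranes. These mice were dosed with tamoxifen at 20 mg/kg daily over 5 days from 8 weeks of age, and every 10 days after that, by oral gavage. For the normal group the protocol gives the same floxed alleles and the same Cre with corn oil in place of tamoxifen, whereas its genotype label reads wildtype, and the labels leave this unresolved. All mice were labelled male, and skin lesions were taken at 16 weeks for sequencing of total RNA.

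Inflammasomes are cytosolic complexes in which a sensor binds an adaptor and, through it, caspase-1. Active caspase-1 matures interleukin-1β and interleukin-18 and cuts gasdermin D, whose freed end forms pores in the plasma membrane. Skin is exposed to microbes and injury, and both keratinocytes and infiltrating leukocytes can use this pathway. The gasdermins of the A and C families are expressed in surface epithelia, and several are encoded by clustered gene copies in the mouse.

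Total counts were 11881506 to 12893174 in the 4 libraries labelled NcstnΔKC and 5835422 to 8663753 in the 4 normal libraries, so low counts are less precise in the normal group. Ncstn itself averaged 57.7 ± 6.86 CPM in the NcstnΔKC libraries and 60.6 ± 1.54 CPM in the normal libraries (SD, n = 4 each), where CPM is the count per 1000000 counts of the scaled library. Its log2 fold change was -0.07 with a 95% interval of -0.34 to 0.20. The counts therefore gave no check of the labels, and every direction below rests on the labels alone. Whole skin also holds cells outside the Cre line, and the floxed exons are not given in the labels. Against the label male, Xist had 36905 to 37109 counts in replicates 3 and 4 of NcstnΔKC and 22304 to 24421 in replicates 3 and 4 of normal, but at most 9 in the other 4 libraries. NcstnΔKC replicate 1 stood apart from the other 3 of its group on the second principal component, and results that rest on it are given with and without it. For the label skin, none of the 12 basal and 12 suprabasal keratinocyte markers had 0 counts across either group. Replicates are not said to come from separate litters or batches, so p-values measure the spread between these samples.

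The largest differences among the 9 transcripts were those of Gsdmc and Nlrp3. Gsdmc was about 25.2-fold and Nlrp3 about 10.2-fold higher in the libraries labelled NcstnΔKC. Nlrp10 was 1.43-fold higher, and the adaptor Pycard was 2.21-fold lower. Casp1, Casp4, Gsdma, Gsdmd and Aim2 did not pass the test. All 9 genes passed the filter on low counts, and 4 of them were called at an adjusted p under 0.05, 3 higher and 1 lower. Over all genes, 44.1% of 15684 tested genes were called, 21.4% higher and 22.7% lower, so the share among the 9 genes is near the background and is not a result about them. The CPM of the groups did not overlap for 4 of the 9 genes, against 41.6% of tested genes, and NcstnΔKC lay above normal in 3 of them, against 20.9%. The log2 fold changes of the 9 genes had a median of 0.60, against -0.02 over all genes tested. Among the 4 libraries with Xist, 2 against 2, 5 of the 9 genes were called, near the 51.7% of all genes called there, with log2 fold changes of 3.50 for Nlrp3, 4.52 for Gsdmc, -1.35 for Pycard, 0.61 for Casp1 and 1.06 for Gsdmd. Among the 4 without Xist, which include NcstnΔKC replicate 1 and normal replicate 2, edgeR called 0 of the 9 genes and 4 of all genes, with 3 of the 9 at an unadjusted p under 0.05, against 25.0% of all genes. Those 3 were all higher, so Pycard was not among them. There the log2 fold changes were 3.23 for Nlrp3, 5.38 for Gsdmc and -0.84 for Pycard. Without NcstnΔKC replicate 1 and normal replicate 2, 7 of the 9 genes were called, against 50.4% of all genes. In bulk tissue, fewer cells of a type and less RNA per cell cannot be told apart.

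**Figure D1:**
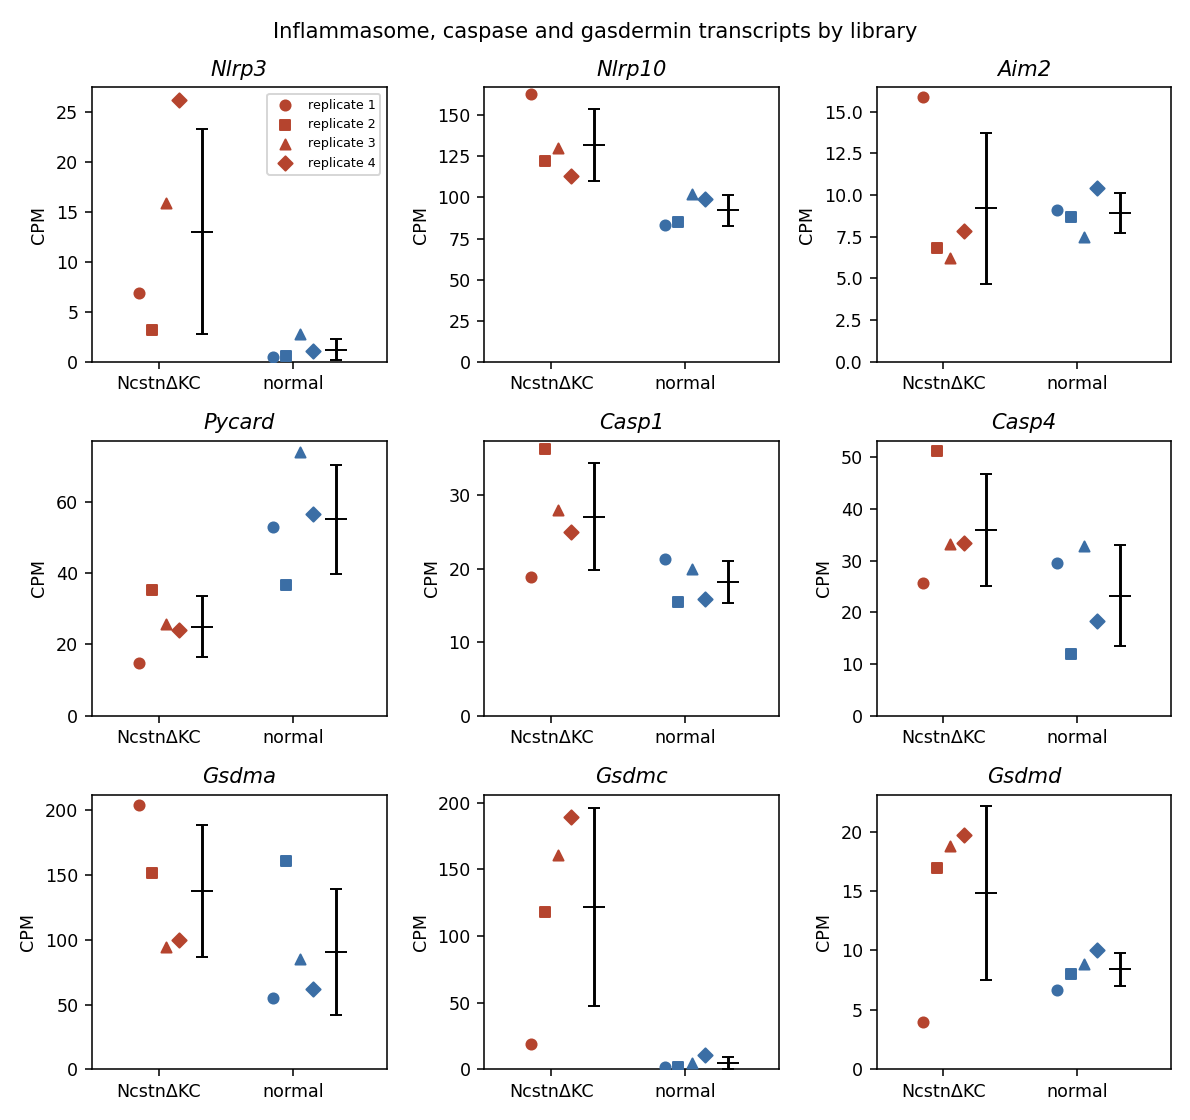
CPM of each of the 9 genes in the 4 libraries labelled NcstnΔKC (red) and the 4 normal libraries (blue), with marker shapes for replicates 1 to 4 and black bars for the mean ± SD. The groups are separate for Nlrp3, Nlrp10, Pycard and Gsdmc, and NcstnΔKC replicate 1 is the highest of its group for Aim2 and the lowest for Gsdmd.

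Nlrp3 (ENSMUSG00000032691, chr11:59541568-59566956, plus strand, with all gene coordinates from the deposited table, on mm10) encodes a sensor that responds to potassium loss, crystals and membrane damage. It had 6.88, 3.21, 15.9 and 26.2 CPM in NcstnΔKC replicates 1 to 4, against 0.456, 0.605, 2.82 and 1.04 CPM in normal replicates 1 to 4. NcstnΔKC replicates 3 and 4 were far above the rest, and replicate 2 was only a little above the highest normal library. The values came from 82, 47, 230 and 390 counts in NcstnΔKC and from 3, 3, 20 and 8 counts in normal. The log2 fold change was 3.36 ± 0.77 (SE, 95% interval 1.62 to 5.09, edgeR adjusted p = 0.00779), higher in 4 of 4 libraries. Leaving out normal replicate 3, the highest of its group, gave 4.23 on the log2 scale. The summed CPM of 10 neutrophil marker genes was 45.9, 154, 342 and 403 in NcstnΔKC replicates 1 to 4, against 16.9 to 24.5 in normal libraries. All 6 neutrophil markers that could be tested were higher in NcstnΔKC. Among those too low to test, Ly6g had 0 counts in the normal group, and Camp was also higher in NcstnΔKC on average. Mpo and Elane went the other way, with means of 0.120 and 0.119 CPM in NcstnΔKC and 0.551 and 0.141 CPM in normal. Macrophage markers summed to 534, 2761, 3143 and 3693 CPM in NcstnΔKC replicates 1 to 4, against 572 to 974 CPM in normal libraries. Of these 10 markers 6 were called higher, and Cd68, Adgre1, Csf1r and Fcgr1 were not called. Mrc1 and Cd163, with means of 1002 and 779 CPM in NcstnΔKC, made up most of the mean sum of 2533 CPM. The part of these cells in the Nlrp3 difference was not tested.

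Promoter windows, from 250 bases before to 50 bases after a transcription start, were available from RefSeq (GRCm38.p6) for 5 of the 9 genes, in 7 windows. The windows were searched on both strands for the RBPJ letters GTGGGAA, since RBPJ is the DNA-binding partner of Notch, a γ-secretase substrate. They were also searched for TGANTCA (AP-1), for GAAA, any 2 bases and GAAA (ISRE type), for TTCNNNGAA (GAS), for GGGA, any base and TTTCC (NF-κB), and for TATAAA. The RBPJ letters occurred in 1 window, that of Nlrp3 at chr11:59542436-59542735 on the plus strand, where they begin 230 bases before a start that lies inside the annotated gene span. That window is shown because Nlrp3 is a gene that changed, with the match in capitals:
Nlrp3 promoter: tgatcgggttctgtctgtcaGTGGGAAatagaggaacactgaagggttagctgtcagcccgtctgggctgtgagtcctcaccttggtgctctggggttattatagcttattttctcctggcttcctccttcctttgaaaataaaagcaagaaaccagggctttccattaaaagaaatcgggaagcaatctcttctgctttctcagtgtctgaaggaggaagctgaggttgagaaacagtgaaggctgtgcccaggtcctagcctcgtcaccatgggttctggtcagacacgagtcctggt
Of 32851 mouse promoters of this length, 6.38% hold the same letters, so the match is a description and not a binding site. None of the other 5 motifs was found in the 7 windows, although 7.81%, 3.44%, 8.3%, 0.411% and 13.6% of all promoters hold them in the order given. A further NF-κB form, GGGGA followed by TTTCC, was looked for after the windows had been read and lies 93 bases before a start of Casp4, with 0.0974% of promoters holding it. A missing match says only that these letters are not in this window.

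Nlrp10 (ENSMUSG00000049709, chr7:108921860-108930158, minus strand) encodes a member of the same receptor family that lacks the leucine-rich repeats and is expressed in keratinocytes. It had 163, 122, 130.0 and 113 CPM in NcstnΔKC replicates 1 to 4, against 83.4, 84.9, 102 and 98.8 CPM in normal replicates 1 to 4. The groups were separate, though by less than the spread within NcstnΔKC. On the log2 scale the fold change was 0.52 ± 0.14 (SE, 95% interval 0.19 to 0.84, edgeR adjusted p = 0.0175), higher in 4 of 4 libraries. Basal keratinocyte markers summed to 13262 to 17235 CPM in NcstnΔKC libraries, against 8142 to 11534 CPM in normal libraries, and 10 of the 12 were higher. Of the rest, Trp63 was not called and Dst was called lower. Dst had means of 1382 CPM in NcstnΔKC and 3125 CPM in normal libraries, the largest part of the normal sum. When libraries were scaled to those markers, the log2 fold change of Nlrp10 became -0.14 (edgeR adjusted p = 0.627). Under that scaling the median over all genes moved from -0.02 to -0.70. Rescaling shifts all genes nearly alike, so where Nlrp10 lies relative to that median says nothing further. In the 4 libraries with Xist the log2 fold change of Nlrp10 was 0.32 and did not pass (edgeR adjusted p = 0.0636).

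Aim2 (ENSMUSG00000037860, chr1:173350879-173466040, plus strand) encodes a sensor of DNA in the cytosol. It had 15.9, 6.83, 6.22 and 7.86 CPM in NcstnΔKC replicates 1 to 4, against 9.11, 8.67, 7.48 and 10.4 CPM in normal replicates 1 to 4. NcstnΔKC replicate 1 was the highest of all 8 libraries, and replicates 2 and 3 were below every normal one. The log2 fold change was 0.04 ± 0.31 (SE, 95% interval -0.67 to 0.75, edgeR adjusted p = 0.929), and without NcstnΔKC replicate 1 it was -0.35 (edgeR adjusted p = 0.143). The Aim2 span overlaps the start of Cadm3 on the other strand, and the strand setting of the counting is not given in the sources used here.

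Pycard (ENSMUSG00000030793, chr7:127989708-127993867, minus strand) encodes ASC, the adaptor that links sensors to caspase-1. It was the 1 gene of the 9 that fell. Pycard had 14.6, 35.3, 25.8 and 24.0 CPM in NcstnΔKC replicates 1 to 4, against 52.8, 36.7, 74.0 and 56.5 CPM in normal replicates 1 to 4. The groups did not overlap, but NcstnΔKC replicate 2 and normal replicate 2 lay close together. Its log2 fold change was -1.14 ± 0.29 (SE, 95% interval -1.79 to -0.49, edgeR adjusted p = 0.0119), lower in 4 of 4 libraries, and without NcstnΔKC replicate 1 it was -0.95 (edgeR adjusted p = 0.0131). With libraries scaled by their total counts it was -0.80 and no longer passed (edgeR adjusted p = 0.0550), while the median over all genes moved to 0.29. The sum of dendritic and Langerhans cell markers moved the same way. It was 63.6 to 77.8 CPM in NcstnΔKC libraries, against 118 to 149 CPM in normal libraries, and 5 of the 6 tested markers were lower. Epcam made up most of the sum, with means of 53.0 CPM in NcstnΔKC and 93.8 CPM in normal libraries. Ccr7, which was not tested, went the other way, with means of 1.50 CPM in NcstnΔKC and 0.410 CPM in normal. Neutrophil and macrophage marker sums, given above, were higher in NcstnΔKC on average. The part of these cells in the Pycard difference was not tested. Of the 31-base stretches in Pycard transcripts, 12.0% also belong to Gm45205, a gene on the other strand that overlaps it.

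Casp1 (ENSMUSG00000025888, chr9:5298517-5307265, plus strand) encodes the inflammasome caspase itself. It had 18.8, 36.3, 28.0 and 25.0 CPM in NcstnΔKC replicates 1 to 4, against 21.3, 15.5, 19.9 and 15.9 CPM in normal replicates 1 to 4. Replicates 2 to 4 of NcstnΔKC lay above every normal library, and replicate 1 lay among them. The log2 fold change was 0.57 ± 0.22 (SE, 95% interval 0.08 to 1.07, edgeR adjusted p = 0.0598). It passed the threshold without NcstnΔKC replicate 1 (0.72, edgeR adjusted p = 0.0127) and without normal replicate 1 (0.73, edgeR adjusted p = 0.0466), and under scaling by basal keratinocyte markers it was -0.11.

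Casp4 (ENSMUSG00000033538, chr9:5308828-5336783, plus strand) is the neighbour of Casp1 and encodes mouse caspase-11, which binds bacterial lipopolysaccharide directly. It had 25.7, 51.2, 33.2 and 33.4 CPM in NcstnΔKC replicates 1 to 4, against 29.6, 11.9, 32.9 and 18.4 CPM in normal replicates 1 to 4. The groups overlapped, with 3 NcstnΔKC libraries a little or well above the highest normal one. Its log2 fold change was 0.63 ± 0.33 (SE, 95% interval -0.12 to 1.37, edgeR adjusted p = 0.153), and under scaling by basal keratinocyte markers it was -0.03. The log2 ratio of Casp4 to Casp1 within a library averaged 0.40 ± 0.11 in NcstnΔKC and 0.26 ± 0.47 in normal (SD, n = 4 each), a difference of 0.15 (exact permutation p = 0.686).

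Gsdmc (ENSMUSG00000079025, chr15:63775968-63808759, minus strand) encodes a pore-forming gasdermin, the human form of which is cut by caspase-8. It had 19.3, 118, 161 and 189 CPM in NcstnΔKC replicates 1 to 4, against 1.67, 1.61, 4.80 and 10.7 CPM in normal replicates 1 to 4. Every NcstnΔKC library was above every normal one, and replicate 1 was by far the lowest of its group. The counts behind these were 230, 1730, 2330 and 2815 in NcstnΔKC and 11, 8, 34 and 82 in normal. The log2 fold change was 4.65 ± 0.82 (SE, 95% interval 2.80 to 6.51, edgeR adjusted p = 0.00243), higher in 4 of 4 libraries. Without NcstnΔKC replicate 1 it was 5.01, and without normal replicate 4, the highest of its group, it was 5.53. Under scaling by basal keratinocyte markers it was 3.94, still past the threshold (edgeR adjusted p = 0.00177).

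Gsdmc lies beside 3 copies, Gsdmc2, Gsdmc3 and Gsdmc4, and 23.9% of the 31-base stretches in its transcripts occur in another gene, 18.7% in Gsdmc2. The first 120 coding bases (GENCODE M21, GRCm38) are shown because they let a reader see how close the copies are where reads must be told apart. Capitals mark bases that differ from Gsdmc, which number 15 in Gsdmc2, 14 in Gsdmc3 and 13 in Gsdmc4:
Gsdmc: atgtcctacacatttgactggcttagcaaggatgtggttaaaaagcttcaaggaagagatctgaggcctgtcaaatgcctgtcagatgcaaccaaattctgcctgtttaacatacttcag
Gsdmc2: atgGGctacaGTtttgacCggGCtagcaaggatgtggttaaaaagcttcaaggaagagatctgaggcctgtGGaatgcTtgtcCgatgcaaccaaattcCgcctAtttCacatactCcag
Gsdmc3: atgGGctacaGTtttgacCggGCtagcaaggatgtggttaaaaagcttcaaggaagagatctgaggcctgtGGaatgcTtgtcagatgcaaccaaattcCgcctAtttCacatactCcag
Gsdmc4: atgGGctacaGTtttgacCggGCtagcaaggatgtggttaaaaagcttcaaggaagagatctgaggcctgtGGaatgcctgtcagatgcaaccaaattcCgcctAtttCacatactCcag
Gsdmc2 had 1.26, 7.58, 12.0 and 10.1 CPM in NcstnΔKC replicates 1 to 4, against 0, 0.403, 0.282 and 0.391 CPM in normal replicates 1 to 4. It rose by 4.80 ± 0.84 on the log2 scale (SE, edgeR adjusted p = 0.00239). Its CPM was below that of Gsdmc in all 8 libraries, and with the shared stretches the 2 changes are not separate evidence. Gsdmc3 and Gsdmc4 were under the filter on low counts, and Gsdmc3 had 0 counts in every normal library.

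Gsdma (ENSMUSG00000017204, chr11:98664351-98677708, plus strand) encodes the epidermal gasdermin that a streptococcal protease can cut. It had 204, 152, 94.6 and 100.2 CPM in NcstnΔKC replicates 1 to 4, against 54.7, 161, 85.0 and 62.3 CPM in normal replicates 1 to 4. Normal replicate 2 was above 3 of the 4 NcstnΔKC libraries, so the groups overlapped. On the log2 scale the fold change was 0.60 ± 0.38 (SE, 95% interval -0.25 to 1.45, edgeR adjusted p = 0.221). Without normal replicate 2 it was 1.09 and passed (edgeR adjusted p = 0.0209). Without NcstnΔKC replicate 1, the highest library, it was 0.36 and did not pass (edgeR adjusted p = 0.452). Under scaling by basal keratinocyte markers it was -0.12. Normal replicate 2 also held the highest sum of hair follicle markers, 38594 CPM, against 2284 to 2937 CPM in the other normal libraries and 353 to 681 CPM in NcstnΔKC libraries. Tchh made up most of that highest sum, at 28383 CPM. Krt15 went the other way, with 1177 CPM in normal replicate 2 and 1713 to 2182 CPM in the other normal libraries. The part of hair follicle cells in the Gsdma values was not tested.

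Gsdma has the copies Gsdma2 and Gsdma3 next to it, and 16.8% of its 31-base stretches occur in another gene, 10.1% in Gsdma2. The start of the coding sequence is again shown for comparison, with capitals for bases that differ from Gsdma, 8 in Gsdma3 and 2 in Gsdma2:
Gsdma: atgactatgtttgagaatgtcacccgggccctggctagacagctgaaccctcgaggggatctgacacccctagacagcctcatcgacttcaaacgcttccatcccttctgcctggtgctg
Gsdma3: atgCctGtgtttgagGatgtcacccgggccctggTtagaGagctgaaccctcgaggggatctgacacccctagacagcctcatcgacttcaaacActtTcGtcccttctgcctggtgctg
Gsdma2: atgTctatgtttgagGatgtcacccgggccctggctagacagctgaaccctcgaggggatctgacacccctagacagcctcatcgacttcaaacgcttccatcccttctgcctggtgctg
Gsdma3, in which mutations cause hair loss in mice, had 18.5, 58.7, 45.9 and 37.9 CPM in NcstnΔKC replicates 1 to 4, against 17.2, 7.06, 15.4 and 14.9 CPM in normal replicates 1 to 4. It rose by 1.56 ± 0.38 on the log2 scale (SE, edgeR adjusted p = 0.00980). Gsdma2 averaged 1.23 ± 0.446 CPM in NcstnΔKC libraries and 1.88 ± 1.06 CPM in normal libraries (SD, n = 4 each) and did not pass (edgeR adjusted p = 0.270).

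Gsdmd (ENSMUSG00000022575, chr15:75862339-75867404, plus strand) encodes the substrate of caspase-1 and caspase-11 that forms the pores of pyroptosis. It had 3.94, 16.9, 18.8 and 19.7 CPM in NcstnΔKC replicates 1 to 4, against 6.68, 8.06, 8.89 and 10.0 CPM in normal replicates 1 to 4. Replicates 2 to 4 of NcstnΔKC were above every normal library and replicate 1 was below every one. Its log2 fold change was 0.82 ± 0.43 (SE, 95% interval -0.16 to 1.80, edgeR adjusted p = 0.154). Without NcstnΔKC replicate 1 it was 1.13 (edgeR adjusted p = 0.00130), so this 1 library decided the call. The macrophage marker sum shows the same order, with 534 CPM in NcstnΔKC replicate 1 and 2761 to 3693 CPM in replicates 2 to 4. Of the 10 markers in it 6 were called higher. The part of these cells in the Gsdmd values was not tested.

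**Figure D2:**
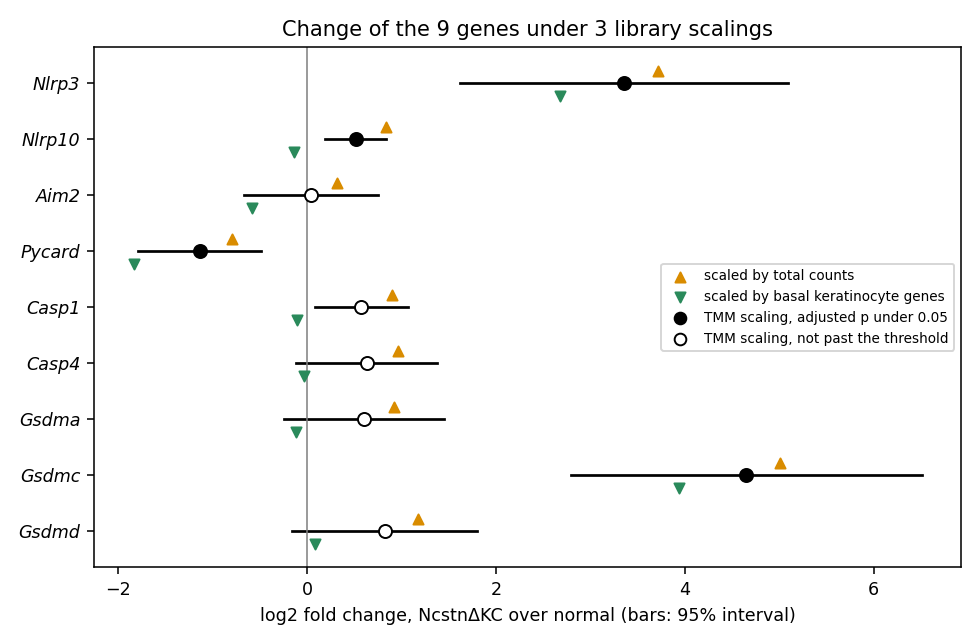
Log2 fold change of each gene, NcstnΔKC over normal, with 95% intervals (circles, TMM scaling) and the point values under scaling by total counts (orange) and by basal keratinocyte markers (green). Nlrp3 at 3.36 and Gsdmc at 4.65 stay well above 0 under all 3 scalings, Pycard stays below 0, and Nlrp10 changes sign to -0.14 under the keratinocyte scaling.

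The choice of scaling moved the smaller changes, as the plot of fold changes shows. Nlrp3 and Gsdmc kept their direction and their call under each of the 3 scalings. Nlrp10, Casp1, Casp4, Gsdma and Aim2 lay below 0 under the scaling by basal keratinocyte markers, and Gsdmd was at 0.08. The median over all genes moved to -0.70 there, and rescaling shifts all genes nearly alike. Pycard was lower under all 3, with values from -1.84 to -0.80.

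Per gene length, in the authors' FPKM, the order of the levels differed between the groups. In NcstnΔKC libraries Gsdmc had the highest level, 56.7 ± 35.2 FPKM, followed by Gsdma at 55.5 ± 17.3, Nlrp10 at 32.6 ± 3.03 and Casp1 at 20.3 ± 6.41 FPKM (SD, n = 4). Lower levels were those of Gsdmd at 9.55 ± 4.93, Casp4 at 8.34 ± 2.89, Pycard at 6.66 ± 2.55, Nlrp3 at 2.87 ± 2.34 and Aim2 at 1.83 ± 0.736 FPKM. Among neighbours in this order, the libraries of Gsdma and Nlrp10 did not overlap, nor did those of Nlrp10 and Casp1, while all other neighbours overlapped. In normal libraries Gsdma came first with 29.0 ± 14.4 FPKM, then Nlrp10 with 18.2 ± 1.65, Pycard with 11.5 ± 2.93, Casp1 with 10.8 ± 2.20 and Casp4 with 4.26 ± 1.82 FPKM (SD, n = 4). Gsdmd followed at 4.19 ± 0.663, Gsdmc at 1.69 ± 1.58, Aim2 at 1.46 ± 0.280 and Nlrp3 at 0.205 ± 0.168 FPKM. The neighbours without overlap were Nlrp10 and Pycard, Casp1 and Casp4, and Aim2 and Nlrp3. The mean level of Gsdmc was above that of 96.9% of tested genes in NcstnΔKC libraries and 31.3% in normal libraries. That of Nlrp3 was above 40.8% in NcstnΔKC libraries and 2.3% in normal libraries, and that of Pycard above 63.5% in NcstnΔKC libraries and 82.6% in normal libraries. The length implied by the FPKM of Pycard, 4236 bases, exceeds its gene span of 4160 bases. Its place among other genes is therefore uncertain.

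**Figure D3:**
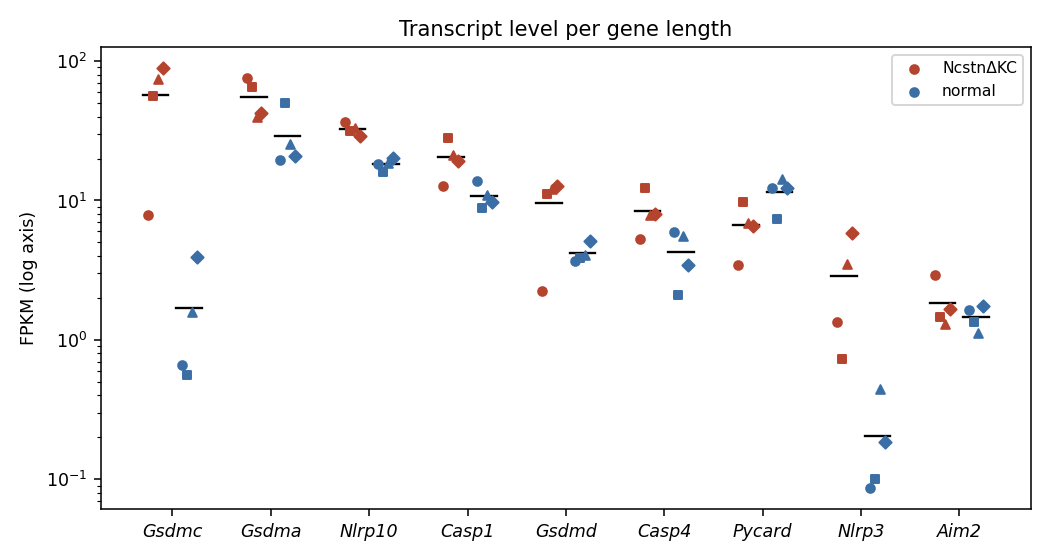
FPKM on a log axis for each gene in libraries labelled NcstnΔKC (red, left) and normal (blue, right), with a bar for each mean and marker shapes for replicates 1 to 4. Genes run from the highest NcstnΔKC mean, Gsdmc at 56.7 FPKM, to the lowest, Aim2 at 1.83 FPKM, and the largest gaps between groups are those of Gsdmc and Nlrp3.

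Ratios between 2 genes of the same library do not depend on the scaling, and 8 such pairs were compared. The log2 ratio of Casp1 to Pycard, caspase over adaptor, was 0.36, 0.04, 0.12 and 0.06 in NcstnΔKC replicates 1 to 4, against -1.31, -1.24, -1.89 and -1.83 in normal replicates 1 to 4. In all 4 NcstnΔKC libraries the counts of Casp1 reached those of Pycard, whereas in all 4 normal libraries they were below. Counts also depend on gene length. Per length, Casp1 and Pycard averaged 10.8 and 11.5 FPKM in normal libraries, with overlap. In NcstnΔKC libraries they averaged 20.3 and 6.66 FPKM. The FPKM of Pycard imply a length of 4236 bases, above its gene span of 4160 bases. Its level per length relative to Casp1 is therefore uncertain. The mean log2 ratios of the groups differed by 1.71 (exact permutation p = 0.0286, adjusted 0.0762 over the 8 pairs). An exact permutation p of 0.0286 is the lowest possible with 70 arrangements. Leaving out any 1 library kept the difference between 1.60 and 1.82. The log2 ratio of Gsdmc to Gsdmd averaged 2.86 ± 0.43 in NcstnΔKC and -1.25 ± 1.07 in normal (SD, n = 4 each), a difference of 4.11 with groups that did not overlap (exact permutation p = 0.0286, adjusted 0.0762). This ratio was lowest of its group in NcstnΔKC replicate 1, at 2.28, against 2.80 to 3.26 in the others, and was above all normal libraries there too. Nlrp3 over Aim2 differed by 3.29, also without overlap (exact permutation p = 0.0286, adjusted 0.0762). Nlrp3 over Nlrp10 differed by 2.72 and Gsdmc over Gsdma by 4.03, each with overlapping groups (exact permutation p = 0.0571, adjusted 0.0914). Gsdma over Gsdmd and Gsdmd over Casp1 differed by 0.08 and 0.04 (exact permutation p = 0.971 and 0.886). No pair passed 0.05 after adjustment over the 8.

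Other genes of the pathway were described in 7 lists, chosen with earlier results of these data known. Their shares, here and below, are therefore descriptions and not support. The lists had 65 entries, of which 64 matched and 54 distinct genes were tested. In all, 16 were higher and 8 lower in NcstnΔKC libraries, a share of 29.6% higher and 14.8% lower, against 21.4% and 22.7% over all genes tested. Called either way they made up 44.4%, against 44.1% over all genes, and their median log2 fold change was 0.40 against -0.02. Of 4 other gasdermins tested, 2 were higher, Gsdmc2 and Gsdma3, against 21.4% of all genes called higher. Gsdme had a log2 fold change of 0.16 ± 0.30 (SE, edgeR adjusted p = 0.689). Of 6 other sensors, 0 were higher and 1 was lower (16.7%, against 22.7% of all genes), Nlrp1b, a sensor of anthrax lethal factor. Nlrp1b had 0.252, 2.32, 4.15 and 3.69 CPM in NcstnΔKC replicates 1 to 4, against 14.0, 9.48, 15.1 and 20.1 CPM in normal replicates 1 to 4. The groups were far apart, and it fell by 2.48 on the log2 scale (SE 0.59, edgeR adjusted p = 0.00927). Naip2 and Naip5, receptors for the rod of bacterial secretion systems and for flagellin, had log2 fold changes of 0.94 ± 0.43 and 0.76 ± 0.46 (SE, edgeR adjusted p = 0.104 and 0.205). Without NcstnΔKC replicate 1 the sensor list gave 2 higher and 1 lower.

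Relatives of Aim2 in the interferon-inducible Ifi200 cluster were lower where they passed. Of 8 tested, 5 fell (62.5%, against 22.7% of all genes) and 0 rose, with a median log2 fold change of -1.12. This list was chosen with earlier results known, so its share is a description. Ifi205 had 13.2, 23.2, 18.0 and 20.0 CPM in NcstnΔKC replicates 1 to 4, against 60.9, 59.7, 115 and 69.7 CPM in normal replicates 1 to 4. It fell by 2.04 on the log2 scale (SE 0.26, edgeR adjusted p = 5.62e-04), with wide separation of the groups. Mndal fell by 1.08 (SE 0.29, edgeR adjusted p = 0.0160) and Ifi208 by 1.17 (SE 0.33, edgeR adjusted p = 0.0198). Scaled by total counts, the list gave 1 higher and 1 lower in place of 5 lower, where 33.9% of all genes were higher and 14.2% lower. Without normal replicate 3 or normal replicate 4 the list gave 1 lower, and without normal replicate 1 it gave 3 lower. These genes are near copies within a cluster, so reads may be split among them. The sum of dendritic cell markers, given above with its limits, was also lower, and the part of these cells in this was not tested.

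Of 8 other caspases, 3 rose and 0 fell, so that 37.5% were called, against 44.1% of all genes called either way and 21.4% called higher. Casp14, a caspase of the differentiating epidermis that is not part of the inflammasome, rose by 1.46 ± 0.39 on the log2 scale (SE, edgeR adjusted p = 0.0160), and Casp6 by 0.85 ± 0.28 (SE, edgeR adjusted p = 0.0362). The call of Casp6 was lost in 10 of 24 alternatives, among them 5 of the 8 that leave out 1 library, upper quartile scaling, limma-voom and the replicate block. The 12 suprabasal keratinocyte markers, which include Casp14, summed to 5609 to 11863 CPM in NcstnΔKC libraries, against 9989 to 18924 CPM in normal libraries. Of these 12 markers 3 were called higher, Dsc1, Klk7 and Casp14, and 5 lower, Krt10 and Krt77 among them. The number of caspases called was 8 higher with total counts, where 33.9% of all genes were higher, and 0 with scaling by basal keratinocyte markers (1 at an unadjusted p under 0.05 in edgeR), where 4.68% were. It was 4 with the DESeq2 Wald test, and 2 to 6 when 1 library was left out.

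Of 6 cytokines and release factors, 5 rose (83.3%, against 21.4% of all genes called higher), Il1a, Il1b, Il18, Il33 and Ninj1. The median log2 fold change of this list was 1.50. It was chosen with earlier results known, so its share is a description. Under scaling by basal keratinocyte markers 3 of 6 rose, where 4.68% of all genes were called higher and 48.3% lower. When 1 library was left out, 3 to 6 rose. The lowest count came without NcstnΔKC replicate 3, where the calls of Il33 and Ninj1 were lost. Il18 had 49.5, 52.8, 31.2 and 30.3 CPM in NcstnΔKC replicates 1 to 4, against 12.1, 6.65, 16.4 and 10.2 CPM in normal replicates 1 to 4. It rose by 1.85 ± 0.30 on the log2 scale (SE, edgeR adjusted p = 0.00173), without overlap. Il1b had 26.5, 10.3, 73.5 and 117 CPM in NcstnΔKC replicates 1 to 4, against 11.8, 2.42, 2.12 and 5.08 CPM in normal replicates 1 to 4. Its highest libraries were NcstnΔKC replicates 3 and 4, as for Nlrp3, and the groups overlapped, with a rise of 3.39 ± 0.82 (SE, edgeR adjusted p = 0.0100). Il1a rose by 1.85 ± 0.31 (SE, edgeR adjusted p = 0.00182).

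Among 14 regulators of assembly, 3 were higher and 2 lower, which is no more than the background of 21.4% and 22.7%. Panx1, a channel that opens after caspase cleavage, rose by 1.95 ± 0.18 (SE, edgeR adjusted p = 1.53e-04). Serpinb1a, an inhibitor of neutrophil proteases, rose by 2.71 ± 0.55 (SE, edgeR adjusted p = 0.00442). Irf2, a transcription factor that drives Gsdmd in human and mouse cells, averaged 40.1 ± 12.2 CPM in NcstnΔKC libraries and 65.6 ± 5.37 CPM in normal libraries (SD, n = 4 each) and fell by 0.71 (SE 0.23, edgeR adjusted p = 0.0339). Without any 1 of the 4 normal libraries, or without NcstnΔKC replicate 2 or 3, the regulator list gave 2 to 3 higher and 0 lower. Of 8 necroptosis and apoptosis genes, 3 rose (37.5%, against 21.4% of all genes called higher) and 0 fell. Under scaling by basal keratinocyte markers 1 rose and 2 fell, where 4.68% of all genes were called higher and 48.3% lower. Ripk3, the kinase of necroptosis, had 10.7, 13.5, 15.2 and 12.8 CPM in NcstnΔKC replicates 1 to 4, against 3.95, 3.83, 2.68 and 2.74 CPM in normal replicates 1 to 4. It rose by 1.99 ± 0.22 (SE, edgeR adjusted p = 2.91e-04). Apaf1, the scaffold of the apoptosome, rose by 1.04 ± 0.15 (SE, edgeR adjusted p = 0.00110) and Cflar, an inhibitor of caspase-8, by 0.51 ± 0.12 (SE, edgeR adjusted p = 0.00892).

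**Figure D4:**
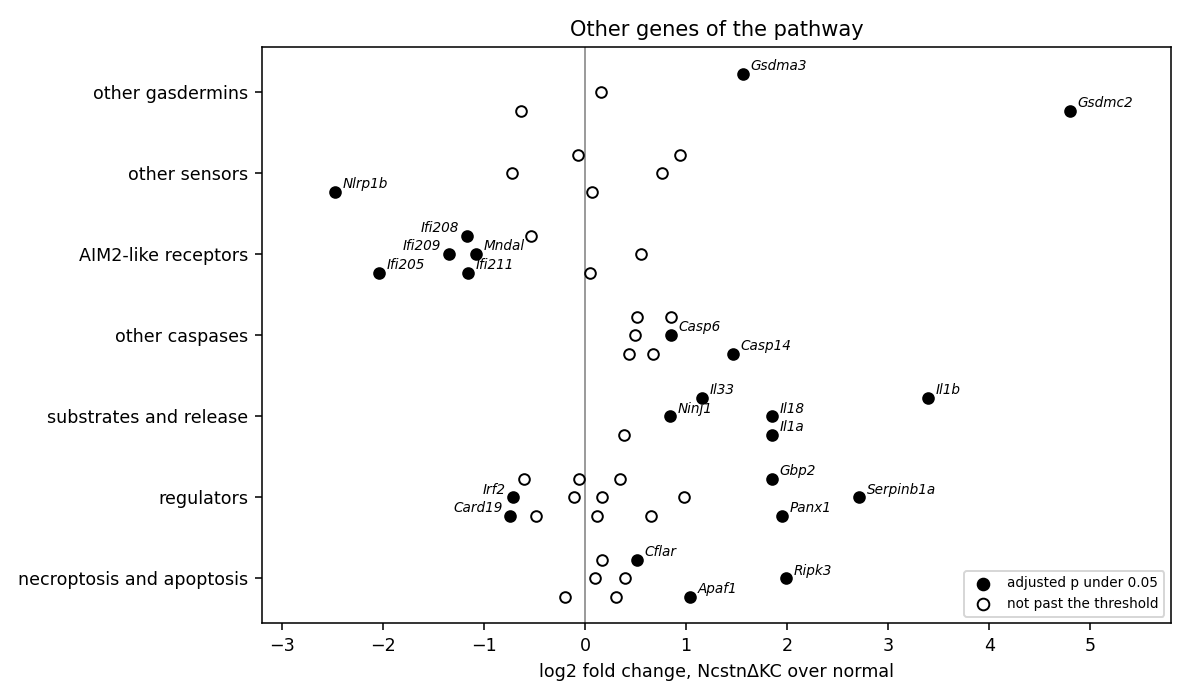
Log2 fold change, NcstnΔKC over normal, of tested genes from the 7 lists, with filled points and names for genes past an adjusted p of 0.05. Called cytokines and release factors lie to the right, up to Il1b at 3.39, and called Ifi200 genes lie to the left, down to Ifi205 at -2.04.

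Within NcstnΔKC, replicate 1 differed from replicates 2 to 4 in most of the 9 genes, in both directions. It was above all 3 for Nlrp10, Aim2 and Gsdma, with ratios to their mean of 1.34, 2.28 and 1.77. It was below all 3 for Pycard, Casp1, Casp4, Gsdmc and Gsdmd, with ratios of 0.515, 0.632, 0.654, 0.124 and 0.213, and it lay between them for Nlrp3. The same library had the fewest neutrophil and macrophage marker counts of its group and the most suprabasal keratinocyte marker counts, 11863 CPM against 5609 to 10111 CPM in replicates 2 to 4. Its sebaceous markers, at 1805 CPM, and muscle markers, at 5832 CPM, were also the highest of the group. Both were below every normal library, at 2431 to 6535 CPM and 6802 to 66111 CPM. Muscle markers averaged 2831 CPM in NcstnΔKC and 41890.3 CPM in normal libraries, and all 10 were called lower. The plot relative to the normal mean sets the genes beside markers of some of these cell types. The part of all these markers in the spread was not tested.

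**Figure D5:**
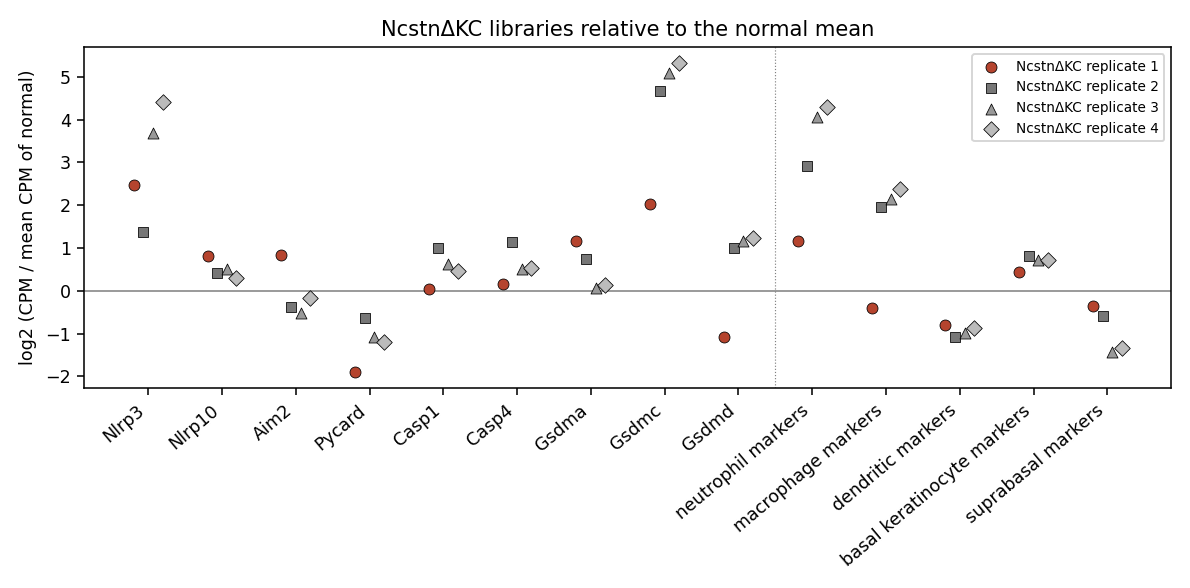
Log2 ratio of each NcstnΔKC library to the mean CPM of the 4 normal libraries, for the 9 genes (left of the dotted line) and for summed markers of 5 cell types (right). Replicate 1 (red) is apart from replicates 2 to 4 (grey) for Gsdmc, at 2.04 against 4.66 to 5.33, for Gsdmd, at -1.09, and for macrophage markers, at -0.41.

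The gene most like each of the 9 was sought among 13669 genes by Pearson correlation of log2 CPM over the 8 libraries, as a description that the group difference and library depth can set. Slfn4 was the most like Nlrp3 (r = 0.980), with 14.3, 6.08, 27.4 and 39.8 CPM in NcstnΔKC replicates 1 to 4, against 1.41 to 2.68 CPM in normal libraries. Fam49b was the most like Gsdmc (r = 0.993) and Pdpn, the podoplanin gene, the most like Gsdmd (r = 0.989). Pdpn had 8.98 CPM in NcstnΔKC replicate 1 and 67.1 to 83.0 CPM in replicates 2 to 4, against 20.3 to 31.0 CPM in normal libraries. For the rest, the genes were Tial1 for Nlrp10 (r = 0.996), Fan1 for Aim2 (r = 0.964) and Exoc3 for Pycard (r = 0.991). C1galt1c1 was the most like Casp1 (r = 0.981), Slc26a2 the most like Casp4 (r = 0.972) and Tmem265 the most like Gsdma (r = 0.987).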

How the data were processed

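The authors deposited raw whole-number counts and FPKM per Ensembl gene for 8 libraries. The submitters' processing notes name TopHat2 2.0.9, TopHat and HTSeq and the builds mm10 and hg38, without roles. Annotation release, strand setting and handling of multiply mapped reads are not given in the sources used here. The deposited FPKM of the 9 genes equalled a constant per gene times the count over the library total. Of the gene IDs, 34267 occur in GENCODE M21 (GRCm38) with identical coordinates for 27686 (80.8%).

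Samples were grouped by their labels, 4 against 4. Genes were filtered with filterByExpr, scaled by TMM and tested with edgeR's robust quasi-likelihood test (edgeR 4.0.16, R 4.3.3, two-sided) across 15684 genes. P-values were adjusted by the Benjamini-Hochberg method and called under 0.05. The common biological coefficient of variation was 0.315. Ratios within a library used counts with 0.5 added and were compared by an exact permutation test (two-sided, 70 arrangements). The fit was tested on simulated data. Marker lists for 12 cell types and 7 pathway lists were matched by symbol, or by ID through a name table for 9 entries, and Irgb10 was not matched.

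The rule for named genes was all 9 genes, the 3 tested genes with the lowest p in each list, further genes where a list is described, Ncstn, and the gene most correlated with each of the 9. A caspase gene that the rule names is counted with its list but is not reported here by name or drawn. The members and lists were chosen with earlier results of these data known. Alternatives were other scalings, filters and tests (limma 3.58.1, DESeq2 1.42.0), log2 FPKM with 1 or 0.1 added (which understates changes of low genes), the replicate block, splits by Xist and leaving out libraries. Further steps used Python 3.11.15, pandas 2.3.3, numpy 2.4.6 and matplotlib 3.10.9.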

Additional observations from a re-analysis of the deposited data

Results flagged for a closer look

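Aim2 in NcstnΔKC replicate 1, at 15.9 CPM, lay far from the other 3 NcstnΔKC libraries, at 6.22 to 7.86 CPM. The gap to the next library divided by the range of the group was 0.830, just above the 95% limit of Dixon's test for 4 values. Chance gives about 1 in 20 groups such a gap, and 34 groups were looked at. The value rests on 189 counts.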

How the results depend on the processing

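Over 24 alternatives, Nlrp3 and Gsdmc kept their direction and their call, except among the 4 libraries without Xist, 2 against 2, where their log2 fold changes were 3.23 (edgeR adjusted p = 0.0975) and 5.38 (edgeR adjusted p = 0.0857). In that subset, which includes NcstnΔKC replicate 1 and normal replicate 2, 4 genes of the whole table were called. Of the 9 genes and of the list genes, 0 and 0 were called (3 and 11 at an unadjusted p under 0.05 in edgeR). Those 3 were all higher. Nlrp10 was at 0.76 and Pycard, which was not among the 3, at -0.84. Of the 9 genes, 4 to 6 were called when 1 library was left out, where 35.5% to 50.5% of all genes were called. Without both NcstnΔKC replicate 1 and normal replicate 2, 7 were called, where the share over all genes was 50.4%. Over the whole table, leaving out 1 library gave 5619 to 7994 calls, and 17 to 32 among the list genes.

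Scaling by total counts gave 5323 higher and 2224 lower genes and moved the median to 0.29, and scaling by basal keratinocyte markers gave 734 higher and 7570 lower with a median of -0.70. Log2 FPKM with 1 added gave 5351 higher and 2115 lower, with a median of 0.20, and with 0.1 added the median was 0.28. With total counts Pycard was at -0.80, Casp1 at 0.90 and Casp4 at 0.96. With basal keratinocyte markers Nlrp10 was at -0.14, Aim2 at -0.58, Casp1 at -0.11, Casp4 at -0.03 and Gsdma at -0.12. With FPKM and 1 added Nlrp3 was at 1.48. With FPKM and 1 or 0.1 added, Pycard was at -0.74 and -0.83, Casp1 at 0.82 and 0.87, Casp4 at 0.85 and 1.0, and Gsdma at 0.96 and 0.99. Casp1 also passed with no filter (0.71) and with the DESeq2 Wald test (0.59). The cause of these changes was not tested.

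Aim2, which was never called, was at -0.04 with upper quartile scaling, -0.09 with limma-voom, -0.05 with the replicate block, -0.00 with Xist as a covariate, -0.31 in libraries with Xist and -0.37 without both named libraries. In libraries with Xist Nlrp10 was at 0.32, Casp1 at 0.61 and Gsdmd at 1.06, and without both named libraries Casp1 was at 0.65, Gsdma at 0.78 and Gsdmd at 1.11. The replicate numbers share no stated origin, and their deviations correlated at -0.02, -0.03, -0.01 and 0.22, so they were not taken as pairs. Not every library correlated best with its own number. With the replicate block 2923 genes were higher and 3058 lower, and Nlrp10 was at 0.51 (edgeR adjusted p = 0.0508).

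Leaving out 1 library gave log2 fold changes of 2.78 to 4.23 for Nlrp3, 0.41 to 0.63 for Nlrp10, -0.35 to 0.19 for Aim2, -1.35 to -0.90 for Pycard, 0.41 to 0.73 for Casp1, 0.41 to 0.90 for Casp4, 0.36 to 1.09 for Gsdma, 4.38 to 5.53 for Gsdmc and 0.66 to 1.13 for Gsdmd. The differences between ratios ran from -0.07 to 0.30 for Casp4 over Casp1, -0.69 to 0.43 for Gsdma over Gsdmd and -0.20 to 0.43 for Gsdmd over Casp1. They ran from 2.18 to 3.22 for Nlrp3 over Nlrp10 and from 3.36 to 4.99 for Gsdmc over Gsdma. Depth limits Nlrp3 most, with 3 counts in each of 2 normal libraries. Shared sequence limits Gsdmc and Gsdma. The filter of at least 1 CPM in 4 libraries kept the 15684 genes of the main filter and so changed nothing.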
